A study of Mus musculus with 8 samples.

Results

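The genes described here act in fat cell formation and were measured in cultured mouse bone marrow mesenchymal stem/stromal cells (MSCs). They were 10 in all, 4 transcription factors (*Cebpa*, *Cebpb*, *Cebpd* and *Pparg*) and 6 genes of fat uptake, fat storage and adipokine secretion (*Fabp4*, *Lpl*, *Adipoq*, *Plin1*, *Cd36* and *Cidec*). They were chosen by symbol and make up 10 of the 24346 genes in the expression table. All 10 reached the level required for testing, an average over libraries of 0.1 RPKM (reads per kilobase of transcript, corrected for library size) or more, as did 15342 genes in all.

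MSCs came from *Dnmt3l* knockout (KO) mice, which carry the tmEnls allele on both chromosomes, and from their wild type (WT) +/+ littermates, all on the C57BL/6 background. Per the study's methods the donors were females of 8 to 16 weeks, cells of 3 mice were mixed per genotype in each experiment, and CD11b+ and CD45+ cells were removed, so that a library is a pool of animals. Cells at passage 4 were either left undifferentiated, in medium with 20% serum, or taken on day 3 of osteogenic induction (differentiating MSCs), in medium with 10% serum, 0.1 μM dexamethasone, 10 mM β-glycerophosphate and 50 μM ascorbic acid 2-phosphate. Each of the 4 groups had 2 libraries, and p-values measure only the spread between these libraries, which may be technical.

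Adipogenesis runs as a cascade. C/EBPβ and C/EBPδ are induced early, by hormones such as glucocorticoids and by cAMP, and they switch on PPARγ and C/EBPα, which then maintain each other and turn on the genes of the mature fat cell. Bone marrow MSCs can become osteoblasts or adipocytes, and dexamethasone is an ingredient of culture media for both fates.

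*Dnmt3l*, the gene disrupted in the KO, was listed at 1.56 and 1.09 RPKM in undifferentiated WT MSCs, at 0.845 and 0.830 RPKM in differentiating WT MSCs, and at 0 in all 4 KO libraries. Depth was estimated from the smallest steps of the RPKM values at 48.2 M to 67.0 M reads per library. A zero needs care in this table, because 50 genes, among them *Actb*, had 20 RPKM or more in both libraries of 1 group and 0 in both libraries of another. None of the 10 genes was among these 50. The leukocyte markers *Ptprc*, *Adgre1* and *Itgam* stayed under 0.4 RPKM in every library, as did the endothelial markers *Pecam1* and *Cdh5*. *Csf1r*, also a macrophage marker, was at 0.351 to 1.90 RPKM. Other macrophage markers were detected more clearly, such as *Lyz2*, lysozyme, at 12.9 to 26.5 RPKM in the WT libraries and 3.19 to 7.66 in the KO libraries. Mesenchymal stromal markers, which the label MSC calls for, summed to between 4619 and 7788 RPKM. Most of this sum was *Vim*, at 2920 to 4344 RPKM. *Thy1* was at 61.2 to 90.0 RPKM, and *Nt5e* and *Alcam* were at 3.92 to 6.57 RPKM. The macrophage list differed between genotypes and is given beside the results that it moves with. In bulk RNA, fewer cells of a type and less RNA per cell cannot be told apart.

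The promoters of the 10 genes were read for the sites of the factors of the cascade, because these genes rose together on induction, as described below. RefSeq (GRCm38.p6) gave 10 windows, each from 250 bases before to 50 after a start site, for 7 of the genes, and *Cebpd*, *Fabp4* and *Lpl* had no entry. The palindromic C/EBP site TTGCGCAA was in 0 of the 10 windows and in 0.183% of all 32851 windows. With 2 free bases in its centre, TTGCNNAA on either strand (which includes the palindrome), a search added after the first gave 0, it was in 3 of 10 windows, against 10.8% of all windows. The PPARγ/RXR repeat AGGTCANAGGTCA and the glucocorticoid receptor site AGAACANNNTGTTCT, both strands searched, were in 0 of the 10 windows, and in 0.0396% and 0.00913% of all windows. A match of letters is a description and not evidence of binding.
The windows with a match to the looser C/EBP pattern are shown as far as they lie before any annotated UTR, 5′ to 3′ on the gene's strand, with the matches in capitals. The *Cidec* and *Pparg* stretches begin 250 bases before a start site and lie in an intron of longer transcripts of the same gene. The *Plin1* stretch is upstream of all its GENCODE vM21 transcripts, and a second match in its window, TTGCCCAA 58 bases before the RefSeq start, falls in the first exon of another transcript and is not in the stretch.
Pparg, chr6:115421816-115422065, plus strand: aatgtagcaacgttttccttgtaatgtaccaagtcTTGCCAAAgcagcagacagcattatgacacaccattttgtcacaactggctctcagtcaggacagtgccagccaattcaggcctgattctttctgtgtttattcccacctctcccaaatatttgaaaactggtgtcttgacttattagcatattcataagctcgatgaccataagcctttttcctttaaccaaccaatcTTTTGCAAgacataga
Plin1, chr7:79732904-79733026, minus strand: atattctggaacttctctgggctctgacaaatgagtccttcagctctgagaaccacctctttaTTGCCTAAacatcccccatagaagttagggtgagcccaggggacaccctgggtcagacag
Cidec, chr6:113434765-113435014, minus strand: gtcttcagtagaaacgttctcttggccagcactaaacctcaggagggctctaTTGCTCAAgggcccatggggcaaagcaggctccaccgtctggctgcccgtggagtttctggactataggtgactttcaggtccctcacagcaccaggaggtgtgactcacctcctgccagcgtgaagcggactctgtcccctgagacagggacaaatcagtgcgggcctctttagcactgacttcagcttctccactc

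**Figure D1:**
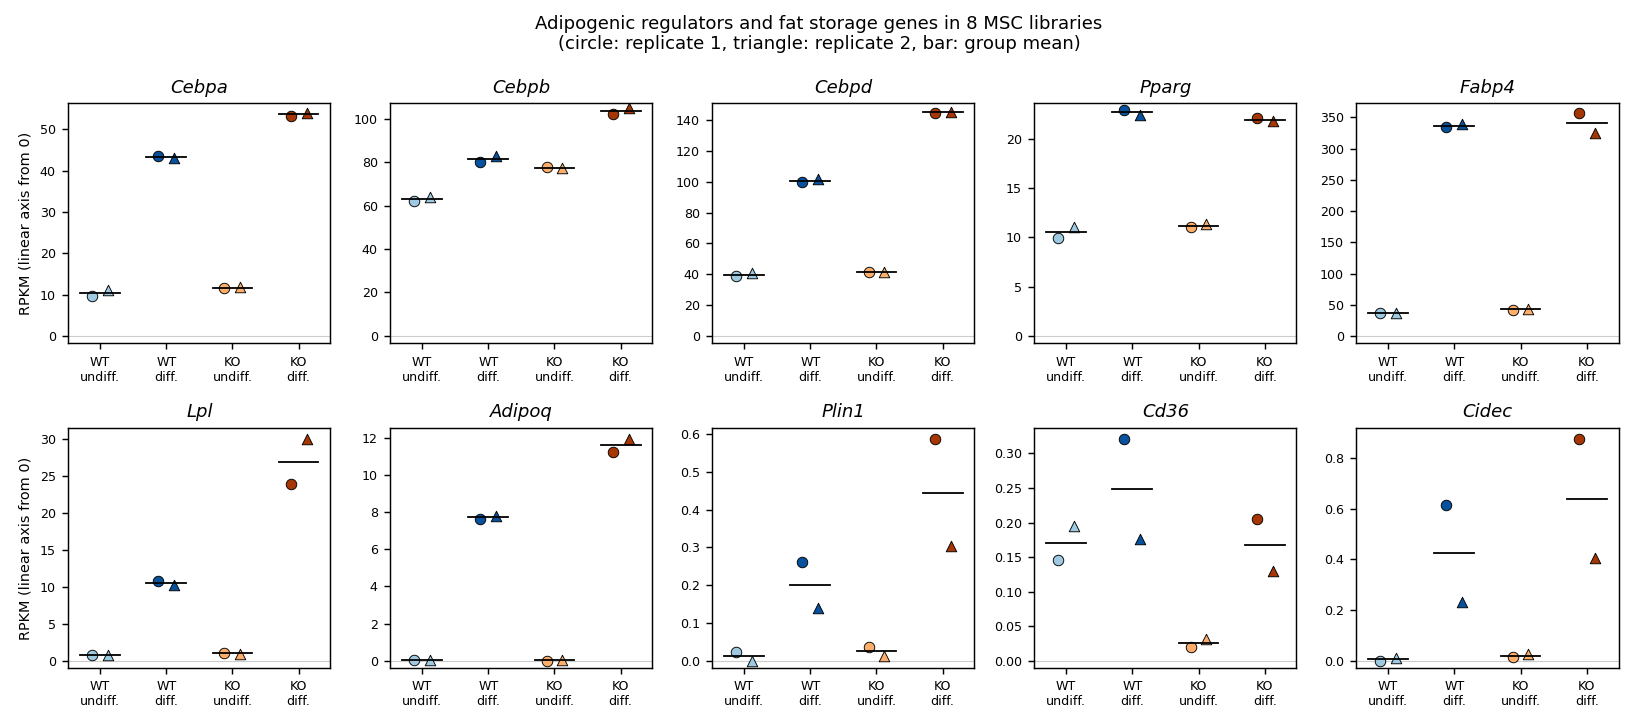
RPKM (linear axis from 0) of each of the 10 genes in the 8 libraries, by genotype and state; circles are replicate 1, triangles replicate 2 and bars group means. All but *Cd36* are higher in every differentiating library than in any undifferentiated library, and *Plin1*, *Cd36* and *Cidec* stay under 1 RPKM throughout. The share of all genes that separate in this way was not counted. By adjusted p alone in limma 31.6% of all tested genes were higher on induction in WT and 36.4% in KO.

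The first question was how these genes responded to osteogenic induction in WT MSCs. Fat cell genes rose with the bone-inducing medium: 8 of 10 passed the limits for differentially expressed genes (DEGs, a fold change above 2 with an adjusted p under 0.05 in limma), all upward. Among all tested genes 9.69% passed upward and 4.63% downward. By adjusted p alone 9 of the 10 were higher and 0 lower, against 31.6% higher and 32.8% lower of all genes. The median log2 fold change of the 10 was 1.73, beside 0.00 for all tested genes. Fold changes were computed from log2(RPKM + 0.1), so that changes of genes near 0 are understated.

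*Cebpa* encodes C/EBPα, which keeps PPARγ expressed and is needed for white fat and for insulin sensitivity of fat cells. It is a gene of a single exon at chr7:35119293-35121928, plus strand, in mm10, and *Gm45091* overlaps it on the opposite strand. Its level was 9.73 and 11.0 RPKM in undifferentiated WT MSCs, 43.6 and 43.0 in differentiating WT, 11.5 and 11.8 in undifferentiated KO, and 53.2 and 54.0 in differentiating KO. The 4 groups did not overlap, in the order undifferentiated WT, undifferentiated KO, differentiating WT, differentiating KO. *Cebpa* rose 4.15-fold in WT (log2 2.05 ± 0.06 SE, limma adjusted p = 2.33e-06) and 4.58-fold in KO (adjusted p = 9.9e-07).

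*Cebpb* (chr2:167688915-167690418, plus strand) encodes C/EBPβ, an early factor of the cascade that also acts in inflammation and in osteoblasts. It was already abundant before induction, at 62.0 and 64.2 RPKM in WT and 77.9 and 77.2 in KO, and measured 80.0 and 82.7 in differentiating WT and 102 and 105 in differentiating KO. The groups kept the same order as for *Cebpa*, and the undifferentiated KO level came close to the differentiating WT level without overlap. Its rise on induction was the smallest fold among the called genes, 1.29-fold in WT (adjusted p = 0.000178) and 1.34-fold in KO (adjusted p = 5.98e-05), and did not reach the 2-fold limit.

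*Cebpd* (chr16:15887286-15891031, plus strand) encodes C/EBPδ, the other early factor and a classic glucocorticoid-induced gene. It was at 38.9 and 40.6 RPKM in undifferentiated WT, 99.6 and 102 in differentiating WT, 41.2 and 41.2 in undifferentiated KO, and 145 and 146 in differentiating KO. The undifferentiated groups lay side by side, whereas the differentiating groups stood well apart. *Cebpd* rose 2.53-fold in WT (adjusted p = 1.32e-06) and 3.52-fold in KO (adjusted p = 2.77e-07).

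*Pparg* (chr6:115360951-115490399, plus strand) encodes PPARγ, the nuclear receptor without which fat cells do not form. It had 9.93 and 11.07 RPKM in undifferentiated WT, 22.9 and 22.5 in differentiating WT, 11.07 and 11.3 in undifferentiated KO, and 22.1 and 21.8 in differentiating KO. Both differentiating KO libraries lay just below both differentiating WT libraries, a difference that was not called. *Pparg* rose 2.15-fold in WT (adjusted p = 1.46e-05) and 1.95-fold in KO (adjusted p = 1.36e-05), so that it met the 2-fold limit in WT and stood just under it in KO, while the interaction test called no difference between the 2 rises (log2 -0.14, 95% interval -0.33 to 0.04, adjusted p = 0.192). *Tmem189*, *Spidr* and *Gm44079* overlap *Cebpb*, *Cebpd* and *Pparg* on the opposite strand. The libraries were stranded and, per the study's methods, aligned with regard to strand, while the strand setting of the counting itself is not given in the sources used here.

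The other 6 genes serve fat uptake, fat storage or hormone secretion. *Fabp4* (chr3:10204088-10208576, minus strand), the fatty acid binding protein of fat cells and macrophages and a PPARγ target, was at 36.5 and 37.4 RPKM in undifferentiated WT and at 335 and 339 in differentiating WT. In KO it was at 41.5 and 43.6 before and 357 and 324 after induction. The differentiating libraries of the genotypes overlapped, and both sat far above all undifferentiated libraries. *Fabp4* rose 9.10-fold in WT (adjusted p = 5.35e-07) and 7.98-fold in KO (adjusted p = 2.79e-07), and it was the most abundant of the 10 per length in differentiating cells.

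*Lpl* (10 exons on chromosome 8, plus strand) encodes lipoprotein lipase, which releases fatty acids from circulating triglycerides for uptake. It was at 0.777 and 0.805 RPKM in undifferentiated WT, 10.8 and 10.3 in differentiating WT, 1.04 and 0.974 in undifferentiated KO, and 23.8 and 29.9 in differentiating KO. Every differentiating KO library was more than double any differentiating WT library. *Lpl* rose 11.9-fold in WT (adjusted p = 2.93e-06) and 24.2-fold in KO (adjusted p = 6.6e-07).

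*Adipoq* (chr16:23146536-23158028, plus strand) encodes adiponectin, a hormone that fat cells secrete and that marrow adipocyte-lineage cells also express. It was barely detected before induction, at 0.0593 and 0.0568 RPKM in WT and at 0 and 0.0588 in KO, close to what 3 reads give (0.0412 to 0.0572 RPKM, counting error only). After induction it was at 7.65 and 7.78 RPKM in WT and 11.2 and 11.9 in KO. It therefore went from about the detection floor to a level approaching that of *Lpl* in WT, with log2 fold changes of 5.63 ± 0.21 (SE, adjusted p = 5.1e-06) in WT and 6.53 ± 0.21 (adjusted p = 1.71e-06) in KO, the largest of the 10.

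*Plin1* and *Cidec* encode proteins of the large lipid droplet of mature fat cells, the coat protein perilipin 1 and the droplet fusion factor CIDEC (FSP27). *Plin1* (chr7:79720218-79732903, minus strand) was at 0.0246 and 0 RPKM in undifferentiated WT, 0.261 and 0.141 in differentiating WT, 0.0375 and 0.0122 in undifferentiated KO, and 0.586 and 0.304 in differentiating KO. *Cidec* (chr6:113424634-113435760, minus strand) was at 0 and 0.0130 RPKM in undifferentiated WT, 0.616 and 0.233 in differentiating WT, 0.0138 and 0.0269 in undifferentiated KO, and 0.874 and 0.404 in differentiating KO. Both stayed below 1 RPKM after induction, in the same libraries in which *Fabp4* exceeded 300 RPKM.

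Before induction the *Plin1* values stand for 0 to 3 reads per library and the *Cidec* values for 0 to 2. On the test scale *Plin1* rose by log2 1.40 ± 0.34 in WT (adjusted p = 0.0123) and 2.08 ± 0.34 in KO (adjusted p = 0.00177), and *Cidec* rose 4.596-fold in WT (adjusted p = 0.00596) and 5.83-fold in KO (adjusted p = 0.00249, SE 0.45 on the log2 scale in both), sizes that the pseudocount sets. For *Plin1* in WT the call was lost without the undifferentiated WT replicate 2 (adjusted p = 0.063) or the differentiating WT replicate 1 (adjusted p = 0.0678), with 0.00377 to 0.0726 over all alternatives. In reads the WT increase of *Plin1* was from 2 to 40 over both libraries, a ratio of 16.9 (exact 95% interval 4.38 to 144, counting error only), which the pseudocount of 0.1 RPKM compresses on the test scale. For *Plin1* in KO it was 17.9 (6.69 to 67.3). For *Cidec* the ratio was 67.6 in WT (11.8 to 2700) and 31.3 in KO (10.4 to 155), so that the order of the genotypes differs from that on the test scale and the intervals overlap.

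*Cd36* (chr5:17781690-17888801, minus strand) encodes the scavenger receptor that takes up long-chain fatty acids in fat cells, macrophages and endothelium, and it did not follow the others. It was at 0.146 and 0.195 RPKM in undifferentiated WT, 0.321 and 0.176 in differentiating WT, 0.0194 and 0.0315 in undifferentiated KO, and 0.205 and 0.130 in differentiating KO. The undifferentiated KO libraries were the low ones, and the other 3 groups overlapped. In WT its log2 fold change was 0.34 (95% interval -0.33 to 1.01, adjusted p = 0.314). In KO it rose by 1.08 ± 0.27 (SE, adjusted p = 0.0117), a call lost without the undifferentiated KO replicate 1 (adjusted p = 0.0526) or the differentiating KO replicate 1 (adjusted p = 0.0532), with 0.00363 to 0.0654 over all alternatives.

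In KO MSCs, too, 8 of the 10 passed the DEG limits on induction, all upward, against 13.0% upward and 9.87% downward of all genes. By adjusted p alone all 10 were higher, against 36.4% higher and 36.6% lower of all genes. The sets of 8 differed in *Pparg*, which passed in WT, and *Cd36*, which passed in KO and for which the interaction test called no difference between the 2 responses (log2 0.74, 95% interval -0.20 to 1.68, adjusted p = 0.179). The median log2 fold change was 2.14, beside 0.00 for all genes.

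*Plin1*, *Cidec* and *Cd36* also shared a pattern within groups that the more abundant genes lacked. In differentiating WT replicate 1 was 1.85, 2.64 and 1.82 times replicate 2 for *Plin1*, *Cidec* and *Cd36*, and in differentiating KO it was 1.92, 2.16 and 1.57 times replicate 2. For *Cebpa*, *Cebpb*, *Cebpd*, *Pparg* and *Fabp4* the same ratios lay between 0.968 and 1.10, for *Adipoq* they were 0.982 and 0.945, and for *Lpl* they were 1.05 and, in the other direction, 0.796. Depth was 67.0 M and 51.4 M reads in the differentiating WT libraries and 50.3 M and 49.5 M in the differentiating KO libraries. Whether differences in culture lie behind these ratios was not tested.

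**Figure D2:**
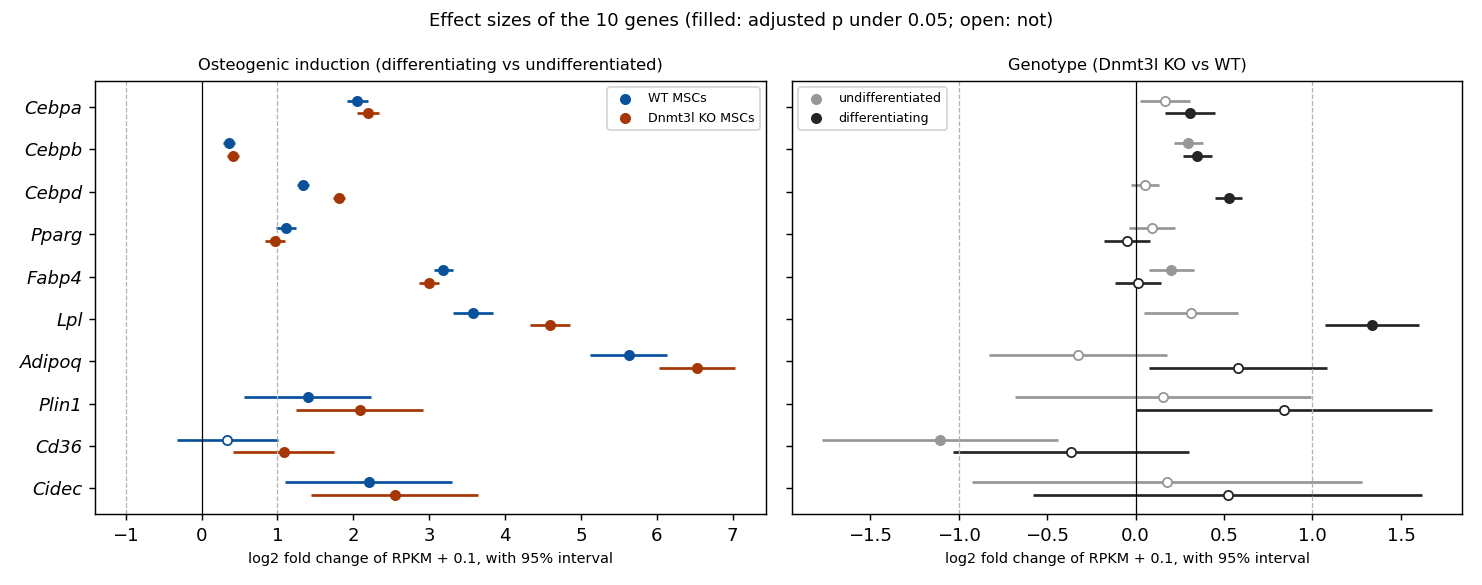
log2 fold change of RPKM + 0.1 with its 95% interval for each of the 10 genes, on induction in WT and KO (left) and for KO against WT in undifferentiated and differentiating cells (right); filled points have an adjusted p under 0.05 in limma, and dashed lines mark the 2-fold limit. *Cebpa*, *Cebpd*, *Fabp4*, *Lpl*, *Adipoq* and *Cidec* have intervals wholly above the 2-fold limit on induction in both genotypes, while *Lpl*, at 1.33, is the gene beyond that limit for genotype in differentiating cells.

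The second question was whether loss of *Dnmt3l* changed these genes before induction. In undifferentiated MSCs differences were small. One of 10 passed the DEG limits, *Cd36*, which was lower in KO, and 0 were higher, where 1.09% of all genes were lower and 0.613% higher. By adjusted p alone *Cebpb* and *Fabp4* were higher and *Cd36* lower, against 14.7% higher and 17.5% lower of all genes, shares that leave the 10 genes near the background. At an unadjusted p under 0.05 in limma 4 were higher and 1 lower.

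*Cebpb* was 1.23-fold higher in KO (log2 0.30 ± 0.03 SE, adjusted p = 0.00223), and both KO libraries were above both WT libraries. *Fabp4* was 1.15-fold higher (0.20 ± 0.05, adjusted p = 0.0316), a call that was lost without any one of 6 of the 8 libraries (both undifferentiated WT, both undifferentiated KO and both differentiating WT libraries; adjusted p = 0.059 to 0.157, and from 0.00606 over all alternatives). *Cd36* was lower by log2 -1.10 ± 0.27 (adjusted p = 0.0274), a call lost without any one of the 4 undifferentiated libraries (adjusted p = 0.0678 to 0.124, and from 0.0115 over all alternatives).

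In reads the *Cd36* difference was 8 over both KO libraries against 55 over both WT libraries, a ratio of 0.149 (exact 95% interval 0.0613 to 0.315, counting error only). The macrophage and leukocyte list moved with it. Its summed level was 24.5 and 25.7 RPKM in undifferentiated WT and 11.7 and 10.9 in undifferentiated KO, with 8 of 16 tested markers past the DEG limits downward and 0 upward. *Adgre1*, *Ptprc* and *Itgam*, defining markers of the list, were low in both genotypes. *Adgre1* was at 0.194 and 0.0832 RPKM in WT and 0.00681 and 0.00662 in KO. *Ptprc* was at 0.127 and 0.0979 in WT and 0.0698 and 0.0243 in KO, and *Itgam* at 0.0908 and 0.139 in WT and 0.0463 and 0.0180 in KO. Markers of the list also differed the other way. *Csf1r*, another defining marker, was higher in undifferentiated KO, at 1.89 and 1.90 RPKM against 1.53 and 1.43 in WT (log2 0.34, limma adjusted p = 0.0315). So was *Cd14*, at 2.59 and 2.18 RPKM against 1.23 and 1.47 (0.78, adjusted p = 0.00463). The part of these markers in the *Cd36* difference was not tested.

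For the other 7 genes no difference was called. *Cebpa* (log2 0.17, 95% interval 0.02 to 0.31) and *Lpl* (0.32, 0.05 to 0.58) were higher in both KO libraries, with adjusted p = 0.0756 and 0.0725. The interval for *Pparg* ran from -0.04 to 0.22 and that for *Cebpd* from -0.02 to 0.13. *Adipoq*, *Plin1* and *Cidec* were too close to the floor for a difference to be detectable at this depth.

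The third question was whether the genotypes differed in differentiating MSCs. Here the C/EBP genes and *Lpl* were higher in KO. By adjusted p alone 4 of 10 were higher and 0 lower, against 17.8% higher and 22.9% lower of all genes. *Lpl* was the 1 gene past the DEG limits, and 0 were past them downward, where 1.36% of all genes were higher and 1.95% lower. The median log2 fold change of the 10 was 0.43, beside -0.01 for all tested genes. At an unadjusted p under 0.05 in limma 5 were higher and 0 lower.

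*Lpl* was 2.52-fold higher in differentiating KO (log2 1.33 ± 0.11 SE, adjusted p = 0.000933), with 23.8 and 29.9 RPKM against 10.8 and 10.3. The call held in all 18 alternative analyses. *Lpl* is also a macrophage gene. The summed macrophage list was at 15.8 and 17.3 RPKM in differentiating KO and 44.2 and 52.0 in differentiating WT, with 11 of 16 markers past the DEG limits downward and 0 upward. Of this sum *Lyz2* held 6.81 and 7.66 RPKM in KO and 22.9 and 26.5 in WT. *Adgre1* was at 0.264 and 0.377 RPKM in differentiating WT and 0.0261 and 0.0332 in KO, and *Ptprc* at 0.0808 and 0.0808 in WT and at 0 and 0.00405 in KO. By adjusted p alone in limma 13 markers were lower and 1 higher in KO. The higher one was *Cd14*, at 4.669 and 4.899 RPKM in KO and 3.484 and 3.425 in WT (log2 0.46, adjusted p = 0.0196). The part of these markers in the *Lpl* difference was not tested.

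All 3 C/EBP genes were higher in differentiating KO, by less than 2-fold. *Cebpd* was 1.44-fold higher (log2 0.53 ± 0.03, adjusted p = 0.000596), *Cebpb* 1.27-fold (0.35 ± 0.03, adjusted p = 0.00129) and *Cebpa* 1.24-fold (0.31 ± 0.06, adjusted p = 0.00925). In each the lowest KO library was above the highest WT library, a separation that was not counted over all genes. The call for *Cebpa* was lost without the differentiating WT replicate 2 (adjusted p = 0.0583, the highest over all alternatives, with 0.00416 the lowest).

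*Pparg* did not share in this, with a log2 difference of -0.05 (95% interval -0.18 to 0.08, adjusted p = 0.511). Neither did *Fabp4* (0.01, -0.12 to 0.14, adjusted p = 0.874), although it passed, at 0.13, after quantile normalization (adjusted p = 0.0228, and up to 0.991 over the alternatives). These intervals exclude a change of 2-fold in either direction.

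*Adipoq* was higher in both differentiating KO libraries (log2 0.58, 95% interval 0.08 to 1.08) but missed the threshold, with an adjusted p of 0.0678. Without undifferentiated KO replicate 1 or 2, listed at 0 and 0.0588 RPKM, the adjusted p was 0.00663 or 0.00698, fitting the 4 differentiating libraries alone gave 0.016, and over all alternatives it ran from 0.00115 to 0.597. *Plin1* (0.84, 0.00 to 1.68, adjusted p = 0.1) and *Cidec* (0.52, -0.58 to 1.62, adjusted p = 0.396) had wide intervals. *Plin1* passed with the replicate number as a block (adjusted p = 0.0376, and up to 0.363 over the alternatives), and in reads it was 73 against 40, a ratio of 2.17 (exact 95% interval 1.45 to 3.27, counting error only). *Cd36* did not differ detectably (-0.36, -1.03 to 0.30, adjusted p = 0.33).

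The test of the difference between the genotypes' responses, the interaction of genotype and state, called *Lpl* and *Cebpd*. By adjusted p alone these 2 of 10 had a larger rise in KO and 0 a smaller one, against 19.4% and 20.0% of all genes, so that the 2 larger rises are near the background share. *Lpl* was the 1 gene past the DEG limits upward, with 0 downward, where 2.76% and 3.42% of all genes passed. The rise of *Lpl* was larger in KO by log2 1.02 ± 0.15 (SE, adjusted p = 0.00449), just beyond the 2-fold limit, and fell under that limit without replicate 2 of any one of the 4 groups (log2 0.8551 to 0.9963), with an adjusted p of at most 0.0237 in every alternative. That of *Cebpd* was larger by 0.47 ± 0.04 (adjusted p = 0.00122). For *Adipoq* the interaction was 0.91 (95% interval 0.20 to 1.62, adjusted p = 0.0516), and without the undifferentiated KO replicate 1 or 2 it passed (adjusted p = 0.0213 and 0.00576, with 0.00218 to 0.219 over all alternatives).

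Over the 8 libraries, 9 of the 10 genes varied together, with pairwise Pearson correlations of log2(RPKM + 0.1) from 0.777 to 0.9985 (36 pairs). *Cd36* correlated with the 9 others at 0.07 to 0.62. Since 4 of the 8 libraries are undifferentiated and 4 differentiating, any pair of induced genes correlates, and these values are a description. Out of 12268 candidates averaging 1 RPKM or more, those most like *Cebpa* over the 8 libraries were *Vegfc*, *Rcan2* and *Map3k6* (r = 0.9998, 0.9993 and 0.9992), which keep the order of its 4 groups. Those most like *Pparg* were *Eva1c*, *Msln* and *Pak3* (r = 0.9996, 0.9993 and 0.9986), with differentiating WT and KO close together. *Vegfc*, for example, was at 1.79 and 2.16 RPKM in undifferentiated WT, 12.04 and 12.3 in differentiating WT, 2.22 and 2.26 in undifferentiated KO and 15.9 and 16.7 in differentiating KO. *Eva1c* was at 2.80 and 3.28, 11.96 and 11.9, 3.36 and 3.43, and 11.7 and 11.6 RPKM in the same order.

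Other genes of the adipogenic pathway were read from lists beside the 10. Among 23 tested pro-adipogenic regulators 7 passed the DEG limits upward and 1 downward on induction in WT, where the list median was log2 0.53. *Klf15*, a glucocorticoid-induced factor that acts with C/EBPs, went from 1.03 and 1.02 RPKM to 20.5 and 20.1 (log2 4.17, adjusted p = 2.96e-07). *Nr1h3*, which encodes the oxysterol receptor LXRα, rose by 2.72 (adjusted p = 3.77e-06) and *Klf4* by 1.63 (adjusted p = 1.69e-06), while *Egr2*, an early inducer of *Cebpb*, fell by 1.62 on the log2 scale (adjusted p = 7.58e-06). In KO 11 passed upward and 0 downward (median 0.82), led by *Klf15* (5.52, adjusted p = 6.28e-08), *Nr1h3* (3.13, adjusted p = 1.31e-06) and *Klf9* (1.72, adjusted p = 1e-06).

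Between genotypes the pro-adipogenic list held few DEGs. In undifferentiated KO 3 were lower and 0 higher: *Mest*, an imprinted gene linked to fat cell size (log2 -2.06, adjusted p = 0.000307), *Egr2* (-1.83, adjusted p = 0.000105) and *Bmp4*, a commitment factor (-1.53, adjusted p = 2.23e-05). In differentiating KO *Mest* was the 1 lower (-1.14, adjusted p = 0.00131) and 0 were higher, though by adjusted p alone 11 were higher and 4 lower.

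Of 23 tested anti-adipogenic regulators, 6 passed upward and 3 downward in WT, so the inhibitors moved both ways. *Ddit3*, whose product CHOP blocks C/EBPs, fell from 114 and 118 RPKM to 20.2 and 23.6 (log2 -2.40, adjusted p = 5.13e-06). *Wnt10b*, a Wnt ligand that holds back adipogenesis, fell by 2.17 (adjusted p = 2.88e-05) and *Hes1*, a Notch target, by 1.71 (adjusted p = 8.01e-05). *Sox9* (1.98, adjusted p = 3.47e-05), *Zfp521* (1.49, adjusted p = 1.31e-05) and *Tcf7l2* (1.22, adjusted p = 0.000373) rose. In KO 2 passed upward and 4 downward. Between genotypes *Hes1* was the 1 DEG, lower in differentiating KO at 4.52 and 3.396 RPKM against 10.1 and 10.8 (log2 -1.39, limma adjusted p = 0.00119). Before induction 0 passed the DEG limits. By adjusted p alone in limma 10 of the 23 were higher and 5 lower there, against 14.7% and 17.5% of all tested genes.

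Of 13 tested genes of the lipid droplet coat and of lipolysis, 3 passed upward and 0 downward in WT: *Plin4*, a droplet coat protein (log2 3.03, adjusted p = 5.94e-07), *Pnpla2*, the first lipase of fat breakdown (1.61, adjusted p = 3.1e-05), and *Cav1*, caveolin-1 (1.12, adjusted p = 0.000101). In KO 6 passed upward and 0 downward, with *Plin4* (4.18, adjusted p = 1.16e-07), *Pnpla2* (2.53, adjusted p = 3.05e-06) and *Lipe*, hormone-sensitive lipase (1.63, adjusted p = 2.88e-05), in the lead. *Plin4* was far above *Plin1*, at 49.5 to 54.7 RPKM in differentiating WT and 75.4 to 77.5 in differentiating KO. Between genotypes *Mgll*, monoglyceride lipase, was the 1 DEG, lower in undifferentiated KO (-1.35, adjusted p = 3.33e-05).

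Genes of fatty acid uptake and triglyceride synthesis showed no common direction. In WT 2 of 20 passed upward, *Slc2a4* (the insulin-responsive glucose transporter GLUT4; log2 1.26, adjusted p = 0.000499) and *Lpin1* (a phosphatidate phosphatase; 1.08, adjusted p = 1.11e-05), and 2 downward, *Fabp5* (-1.24, adjusted p = 0.00053) and *Acsl3* (-1.05, adjusted p = 0.000241). In KO 5 passed upward and 3 downward, led by *Vldlr* (2.53, adjusted p = 2.21e-06), *Angptl4* (2.26, adjusted p = 1.14e-05) and *Lpin1* (1.74, adjusted p = 1.21e-06) upward and *Fabp5* (-1.79, adjusted p = 6.54e-05), *Acsl3* (-1.16, adjusted p = 9.74e-05) and *Acsl4* (-1.12, adjusted p = 2.21e-06) downward. *Fabp5*, a relative of *Fabp4* that fat cells and macrophages also express, thus fell as *Fabp4* rose. Between genotypes no gene of this list passed the DEG limits in either state. By adjusted p alone in limma 1 was higher and 7 lower before induction (9 lower at an unadjusted p under 0.05). After it 5 were higher and 6 lower.

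Of 11 tested adipokines and mature fat cell markers, 4 rose past the limits and 1 fell in WT (*Rbp4*, a retinol carrier, log2 -1.03, adjusted p = 0.00416), and 7 rose and 0 fell in KO. *Nampt* went from 12.1 and 12.2 RPKM to 54.5 and 50.1 in WT (log2 2.09, adjusted p = 1.73e-06) and to 86.9 and 93.9 in KO (3.34, adjusted p = 2.34e-07). *Rarres2*, which encodes chemerin, was higher in differentiating KO, at 14.8 and 20.3 RPKM against 9.27 and 7.82 (1.01, adjusted p = 0.017). *Retn*, resistin, was listed at 0 in all 4 undifferentiated libraries and at 0.118 and 0.170 RPKM in differentiating WT and 0.420 and 0.534 in differentiating KO. *Rarres2* and *Retn* were the 2 DEGs of the list between genotypes after induction, both higher in KO, and 0 passed before it. By adjusted p alone in limma 0 were higher and 4 lower before induction, against 14.7% and 17.5% of all tested genes. Other hallmarks of the list did not reach the testing minimum, which 5 of its 16 genes missed.

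**Figure D3:**
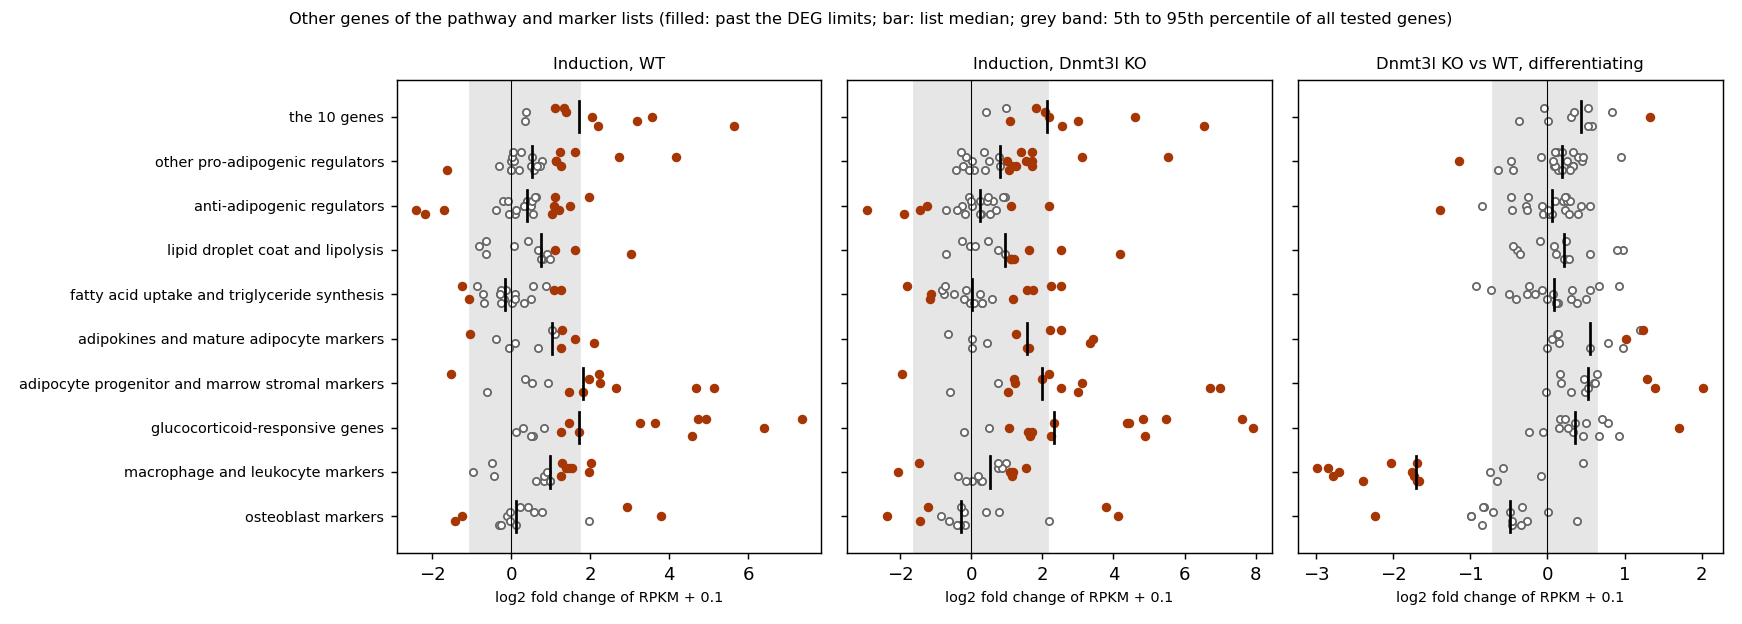
log2 fold change of RPKM + 0.1 of each tested gene of the 10 genes and 9 other lists, for induction in WT, induction in KO and KO against WT in differentiating cells; filled points pass the DEG limits, bars are list medians and the grey band runs from the 5th to the 95th percentile of all tested genes. The 10 genes have a median of 1.73 in WT and 2.14 in KO on induction, and the macrophage list, with a median of -1.71, lies low for genotype.

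The lists of progenitor markers, hormone response and other lineages moved as well and are given for comparison. Adipocyte progenitor and marrow stromal markers rose with the 10 genes: 8 of 13 passed upward and 1 downward in WT and 10 upward and 1 downward in KO. The summed list went from 731 and 740 RPKM to 2589 and 2497 in WT and from 912 and 929 to 3621 and 3649 in KO. Most of these sums was *Ly6a*, which went from 471 and 478 RPKM to 1868 and 1825 in WT and from 639 and 653 to 2603 and 2523 in KO. *Pi16* (log2 2.02, adjusted p = 0.000633), *Cd34* (1.40, adjusted p = 0.000867) and *Dpp4* (1.29, adjusted p = 0.00416), all surface markers of fat cell progenitors, were higher in differentiating KO than WT, and by adjusted p alone 12 of the 13 were higher and 0 lower.

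Glucocorticoid-responsive genes rose as a list in the dexamethasone medium, with 10 of 15 past the limits upward in WT and 13 in KO, and 0 downward in either. The summed list was at 3776 and 3370 RPKM in differentiating WT and 5156 and 5570 in differentiating KO, and at 619 to 682 RPKM in the undifferentiated libraries. Large parts of the differentiating sums were *Mt1* (856 and 679 RPKM in WT, 1237 and 1397 in KO) and *Mt2* (1033 and 885 in WT, 1505 and 1629 in KO). By adjusted p alone 11 of 15 were higher and 1 lower in differentiating KO against WT, of which *Lcn2* (1.71, adjusted p = 0.00126) passed the DEG limits. The list moved in the same direction as the C/EBP genes and *Lpl* between genotypes, and its part in their differences was not tested. *Klf9* and *Angptl4* stand both in this list and in a list of the pathway. *Lipe* is counted both with the lipolysis genes and with the mature fat cell markers. *Slc2a4* is counted both with fatty acid uptake and triglyceride synthesis and with those markers, so counts of these lists share genes.

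Osteoblast markers moved the other way between genotypes in differentiating cells. The summed list was at 7376 and 7059 RPKM in differentiating WT and 5187 and 4788 in differentiating KO, with 0 of 15 higher and 11 lower by adjusted p alone, and *Bglap*, osteocalcin, was the 1 lower past the DEG limits (log2 -2.23, adjusted p = 0.00763) at under 1 RPKM. Before induction *Bglap* (log2 -1.49, limma adjusted p = 0.0349), *Ibsp* (-1.33, adjusted p = 0.000726) and *Postn* (-1.18, adjusted p = 0.000194) were past the DEG limits, lower in KO. By adjusted p alone 6 were lower there and 1 higher, *Col1a1* (0.62, adjusted p = 0.0153). On induction 2 passed upward and 2 downward in WT and 2 and 3 in KO, led upward by *Ibsp*, bone sialoprotein (3.78 in WT, adjusted p = 2.01e-06, and 4.11 in KO, adjusted p = 7.6e-07). On induction in WT the macrophage list had 7 of 16 markers past the limits upward and 0 downward, and in KO 4 upward and 2 downward. The summed endothelial list lay between 14.7 and 19.5 RPKM in all libraries, of which *Eng*, also in the mesenchymal stromal list, held 10.8 to 14.3 RPKM. The list had 0 DEGs between genotypes in either state. By adjusted p alone in limma 1 was higher and 1 lower before induction. After it 1 was higher and 2 lower (3 lower at an unadjusted p under 0.05). On induction 3 of 6 tested endothelial markers passed the limits upward in WT and 2 in KO, with 0 downward. *Tek* went from 0.358 and 0.443 RPKM to 3.62 and 4.13 in KO. It was higher in differentiating KO than WT (log2 0.83, limma adjusted p = 0.00735) and passed the DEG limits for the interaction. Mesenchymal stromal markers had 0 DEGs between genotypes in either state. By adjusted p alone in limma 5 of 11 were higher and 3 lower before induction, and 3 higher and 5 lower after it.

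**Figure D4:**
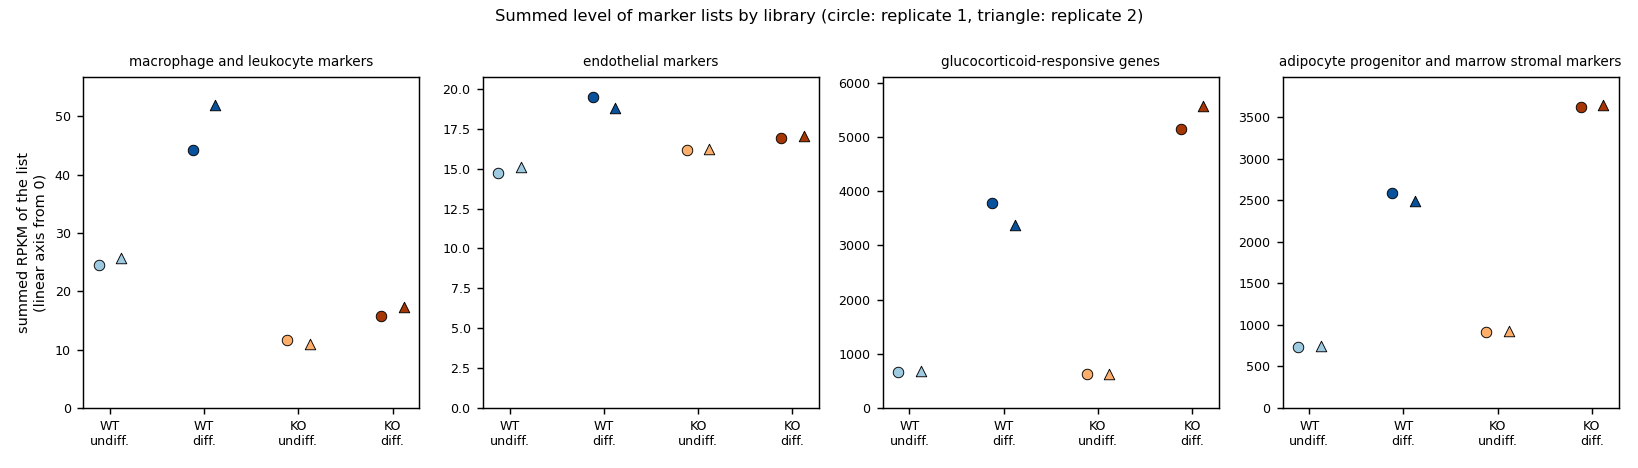
Summed RPKM (linear axis from 0) of 4 marker lists in each library; circles are replicate 1 and triangles replicate 2. The macrophage and leukocyte list is lower in KO in both states (10.9 to 17.3 RPKM, against 24.5 to 52.0 in WT), while the glucocorticoid-responsive and progenitor lists reach their highest sums in differentiating KO. Large parts of these sums are *Lyz2* (macrophage), *Mt1* and *Mt2* (glucocorticoid-responsive) and *Ly6a* (progenitor).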

How the data were processed

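RNA of 8 MSC libraries was depleted of rRNA and sequenced as 50-bp reads. The submitters' notes name TopHat2 2.1.0, Cuffdiff and Cufflinks 2.2.1 with mm10. The authors deposited 1 RPKM table (reads per kilobase, scaled to mapped reads), with a column per library. Reads were aligned with regard to strand per the study's methods. The strand setting of the counting, library scaling and the handling of multi-mapped reads are not given in the sources used here, and closely related genes may share reads. The RPKM values were used as deposited. log2(RPKM + 0.1) of the 15342 genes averaging 0.1 RPKM or more was fitted in limma 3.58.1 (R 4.3.3, variance trend, a mean per group over all 8 libraries, 4 residual and 1.98 prior degrees of freedom), with 5 contrasts and two-sided p-values adjusted by Benjamini-Hochberg over all tested genes. DEGs had a fold change above 2 and an adjusted p under 0.05, the study's limits. The fit was also run on simulated data, with changes beyond the 2-fold limit planted only in genes well above the expression minimum. That run does not cover genes near the floor or smaller changes.

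Depth was estimated from RPKM steps of 3644 genes with 1 transcript (length less 204 nt). Of 5547 low values 79.2% came within 0.1 read of a whole number, where 20% would by chance, so read numbers are estimates and no count test was run. Exact intervals (95%) and 3-read floors on them cover counting error only.

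Positions are GENCODE vM21 (mm10). Analysis used Python 3.11.15 with pandas 2.3.3. Genes and lists were chosen with earlier results of these data known. Named from each list were at most 3 genes per direction and comparison, those with the largest change past the DEG limits. 1 gene of the lists is not reported here and was left out of the list counts. *Actb* was named after its values were seen. Alternatives were 2 other pseudocounts, other expression minimums, quantile normalization, median centring, no variance trend, a replicate block, only the libraries compared, leaving out each library and, added after seeing the data, leaving out genes listed at 0 in a group.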

Additional observations from a re-analysis of the deposited data

Results flagged for a closer look

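Genotype effects that differed between undifferentiated and differentiating cells by the interaction test (limma, adjusted over all tested genes) are listed here. Positive values mean a larger rise, or a smaller fall, on induction in KO. Among the 10 genes these were *Lpl* (log2 1.02, adjusted p = 0.00449) and *Cebpd* (0.47, adjusted p = 0.00122).

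Among the other adipogenic genes 11 passed the DEG limits beside *Retn* (1.24, adjusted p = 0.0192), which was listed at 0 before induction, so that its value rests on the pseudocount. The lists they come from held 23, 23, 13, 20 and 11 tested genes, some of which, such as *Lipe* and *Slc2a4*, stand in more than 1 list. Of all tested genes 2.76% passed these limits upward and 3.42% downward. Regulators with a larger rise, or for *Egr2* a smaller fall, in KO were *Klf15* (1.35, adjusted p = 0.000416), *Egr2* (1.18, adjusted p = 0.000852) and *Bmp4* (1.08, adjusted p = 0.000341). Each started lower in undifferentiated KO, *Egr2* and *Bmp4* past the DEG limits and *Klf15* by adjusted p alone (log2 -0.40, limma adjusted p = 0.00425). Inhibitors with negative values were *Tgfb1* (-1.57, adjusted p = 0.000598), *Hes1* (-1.23, adjusted p = 0.00398) and *Sox9* (-1.08, adjusted p = 0.00491). *Hes1* had a larger fall and *Sox9* a smaller rise in KO. *Tgfb1* rose in WT (log2 0.32, limma adjusted p = 0.0107) and fell in KO, from 3.19 and 3.24 RPKM to 1.25 and 1.34. *Tgfb1* and *Sox9* started higher in undifferentiated KO (log2 0.72 and 0.61, limma adjusted p = 0.00194 and 0.0128). Lipid genes were *Angptl4* (1.71, adjusted p = 0.0014), *Vldlr* (1.64, adjusted p = 0.000747) and *Plin4* (1.16, adjusted p = 0.000544). Adipokines were *Rarres2* (1.79, adjusted p = 0.00824) and *Nampt* (1.24, adjusted p = 0.000496). By adjusted p alone *Plin4*, *Vldlr*, *Nampt*, *Angptl4* and *Rarres2* also started lower in undifferentiated KO (limma adjusted p = 0.00104 to 0.0482). Groups of 2 libraries were too small to look for outlying samples.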

How the results depend on the processing

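Each result was recomputed under 16 to 18 alternatives, since some left low genes untested and the interaction needs all groups. Of 870 recomputed fold changes of the 10 genes, 826 kept their direction and side of the threshold. *Cd36* lower in undifferentiated KO, the 1 DEG there, was 0 with a pseudocount of 1, with a minimum of 0.5 RPKM and with only the libraries compared, where its mean fell under the minimum in the last 2. Leaving out a library gave 0 to 1 DEGs there and 1 to 4 genes by adjusted p alone. In KO induction 8 DEGs became 5 with a pseudocount of 1 and 5 with a minimum of 0.5 RPKM, under which *Plin1*, *Cd36* and *Cidec* were not tested. The interaction DEG, *Lpl*, became 0 with a pseudocount of 0.01, and the count was 0 to 1 on leaving out a library (1 without undifferentiated KO replicate 2, where *Lpl* was at 0.97 and *Adipoq* passed). Signs of uncalled values turned in the ranges over left-out libraries for *Adipoq* (-0.66 to 0.0063) and *Plin1* (-0.0041 to 0.31) in undifferentiated KO against WT, for *Fabp4* (-0.056 to 0.081) and *Cidec* (-0.032 to 1.07) in differentiating KO against WT, and for the *Cidec* interaction (-0.21 to 0.89; -0.34 with a pseudocount of 0.01). The cause was not tested. A lone library left in a group was assumed to vary like the others.

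Upward genes were 67.65% of all WT induction DEGs, 56.4% after quantile normalization and 59.64% after median centring, which shifted the median of all genes by -0.10. The 10 genes kept their directions under both. Replicate numbers did not pair the libraries (correlations of replicate differences -0.092 to 0.030). With the replicate number as a block the DEGs of all genes went from 261 to 244, 507 to 504, 2198 to 2194, 3511 to 3511 and 947 to 922, and *Fabp4* in undifferentiated cells (adjusted p = 0.0637) lost its call.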
